A study of Mus musculus with 12 samples.

Results

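Bile acid synthesis and transport were read from 10 genes of the liver: *Cyp7a1*, *Cyp8b1*, *Cyp27a1*, *Cyp7b1*, *Hsd3b7*, *Akr1d1*, *Slc27a5*, *Baat*, *Slc10a1* and *Abcb11*. They were chosen as the main enzymes of the classic and the alternative pathway, the conjugating enzymes and the carriers at the blood and bile sides of the hepatocyte, and their rows were taken by Ensembl identifier from a table of 54232 genes. The data are bulk RNA-seq counts from livers of C57Bl/6J males aged 10 weeks, on chow and fasted for 4 h. The 6 WT mice were *Marchf6* fl/fl littermates without Cre by the study's methods, and the 6 LKO mice were *Marchf6* fl/fl with Cre under the albumin promoter, which acts in hepatocytes. MARCHF6 is an E3 ubiquitin ligase of the endoplasmic reticulum. Each mouse gave 1 library, and 14860414 to 22111926 reads were counted per library. Libraries were numbered from WT to LKO, so their order and the genotype cannot be told apart.

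Bile acids are made from cholesterol in hepatocytes. In the classic pathway CYP7A1 adds the first hydroxyl group and sets the rate, HSD3B7 and AKR1D1 reshape the sterol ring, and CYP8B1 adds the hydroxyl group that makes cholic acid. In the alternative pathway CYP27A1 oxidises the side chain and CYP7B1 hydroxylates the resulting oxysterols. SLC27A5 and BAAT then attach taurine or glycine, ABCB11 (the bile salt export pump) secretes the product into bile, and SLC10A1 (NTCP) takes returning bile acids up from portal blood. The pool is sensed by the receptor FXR, encoded by *Nr1h4*, which induces *Nr0b2* (SHP) and *Abcb11* in liver, and intestinal FGF15 acts on FGFR4 with beta-Klotho to hold *Cyp7a1* down.

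Upstream sequence of a pair of these genes shows the letters through which this feedback is known to be read. RefSeq windows on GRCm38.p6 were at hand for 6 of the 10 genes, and the 250 bases before the start are given 5′ to 3′ for those in which a searched motif was found. The *Abcb11* window lies on the minus strand at chr2:69342617-69342866, with an inverted repeat of the FXR type (AGGNCA, any base, TGACCT) in capitals. The *Cyp8b1* window lies on the minus strand at chr9:121916306-121916555, and its capitals cover an HNF4A type motif (CAAAGTCCA) that runs into an LRH-1 type motif (CAAGGNCA).
*Abcb11*: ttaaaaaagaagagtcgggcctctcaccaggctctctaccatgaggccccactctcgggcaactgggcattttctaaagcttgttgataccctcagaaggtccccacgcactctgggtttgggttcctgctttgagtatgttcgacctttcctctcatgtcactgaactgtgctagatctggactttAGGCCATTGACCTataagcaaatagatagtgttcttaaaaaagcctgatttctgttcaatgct
*Cyp8b1*: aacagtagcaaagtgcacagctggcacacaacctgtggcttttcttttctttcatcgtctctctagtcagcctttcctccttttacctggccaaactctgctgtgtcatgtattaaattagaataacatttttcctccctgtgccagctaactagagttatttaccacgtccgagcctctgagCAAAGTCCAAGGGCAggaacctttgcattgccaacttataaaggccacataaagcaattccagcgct
Searched on both strands, the inverted repeat was in 11 of 32851 windows of this length (0.0335%), the HNF4A type in 126 (0.384%) and the LRH-1 type in 1816 (5.53%). The inverted repeat of *Abcb11* spans bases 63 to 51 before the start, and the *Cyp8b1* motifs span bases 67 to 59 and 60 to 53. These matches describe the sequence only, since binding was not measured here.

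Levels are given in CPM, the reads of a gene relative to the library total after TMM scaling. The labels could not be checked on the targeted gene, because a count per gene does not separate the deleted exon. *Marchf6* was read at 226, 244 and 247 CPM in the lowest, median and highest WT liver, and at 204, 227 and 248.9 CPM in LKO. The groups overlapped, with a log2 fold change of LKO over WT of -0.09 ± 0.06 (SE) and an adjusted p of 0.585 by edgeR's quasi-likelihood test.

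None of the bile acid genes passed the test between genotypes. Of the 10 genes 9 could be tested, and 0 of them had an adjusted p under 0.05 by edgeR, by limma voom or by DESeq2, where edgeR called 0.428% of all 17509 genes tested. At an unadjusted p under 0.05, 4 of the 9 were lower in LKO (*Cyp7b1*, *Slc27a5*, *Baat* and *Abcb11*) and 0 were higher, against 5.36% of all genes lower and 6.33% higher. The log2 fold change was below 0 for 7 of the 9, with a median of -0.23, where the median over all genes tested was 0.00. The groups overlapped for all 9, where 1.3% of all genes did not (0.554% with LKO lower). The 9 genes are not all independent of each other, since several rose and fell together from liver to liver (given further on). Of the 4 lower genes only *Slc27a5* was in a pair that passed the test of correlation. Among the 4, Pearson's r of the log2 CPM deviations from the genotype mean ran from -0.23 (*Cyp7b1* and *Slc27a5*) to 0.67 (*Baat* and *Abcb11*).

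**Figure D1:**
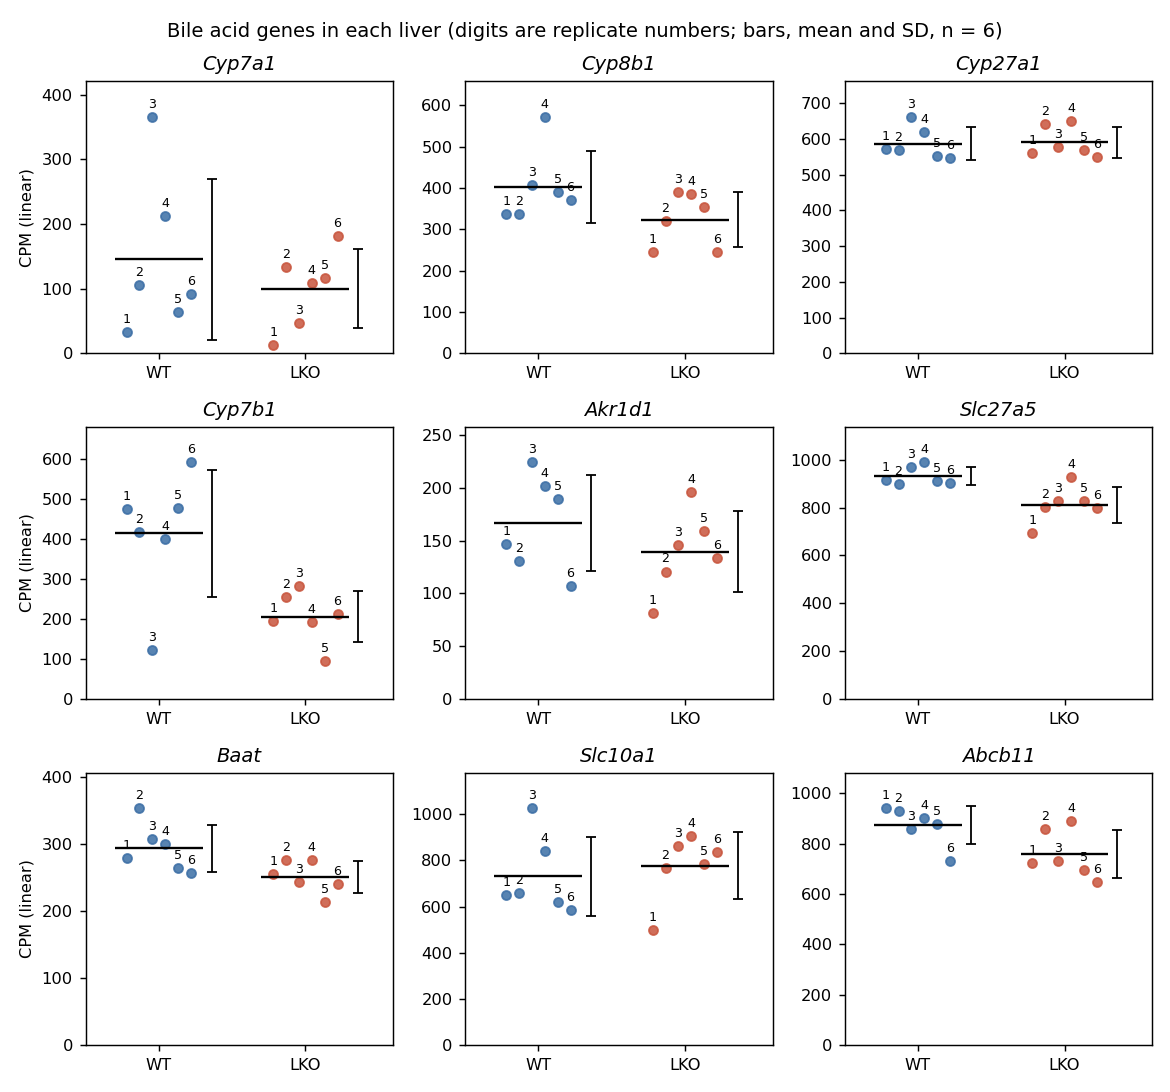
CPM (y axis, linear, from 0) of the 9 bile acid genes with reads in each of 6 WT (blue) and 6 LKO (red) livers; digits are replicate numbers, horizontal lines means and vertical bars 1 SD. *Cyp7a1* spans 12.4 to 366 CPM, *Cyp27a1* only 546 to 663 CPM, and WT replicate 3 lies among the LKO livers for *Cyp7b1*.

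*Cyp7a1*, the rate-limiting enzyme of the classic pathway (chr4:6265612-6275633, minus strand), was the most variable of them. Its level was 33.0, 98.9 and 366 CPM in the lowest, median and highest WT liver and 12.4, 112 and 182 CPM in LKO. The lowest liver of each genotype was replicate 1, the highest WT liver was replicate 3, and the LKO median lay above the WT median although the LKO mean of 99.6 ± 61.1 CPM (SD, n = 6) lay below the WT mean of 145 ± 124 CPM. The log2 fold change was -0.54 ± 0.58 (SE), with a 95% interval from -1.77 to 0.68 and an adjusted p of 0.765 by edgeR. On the linear scale the interval runs from 0.292 to 1.61 times WT, so differences within these bounds are not excluded. WT replicate 3 decided the estimate, which was -0.02 without it (adjusted p = 0.993 by edgeR).

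Across the 12 livers *Cyp7a1* spanned 29.6-fold, and its SD within genotypes of 1.34 on the log2 scale was above that of 99.9% of the genes with a mean of at least 10 CPM. It was counted with 266 to 5764 reads per liver. *Cyp7a1* is known to follow the time of day and feeding, so clock genes were read beside it, in livers whose time of collection the labels do not give. *Dbp*, an output gene of the clock, was at 12.1 to 21.7 CPM in replicates 1 and 2 of both genotypes and at 60.8 to 76.8 CPM in replicates 3 to 6. *Arntl* (BMAL1), its activator, had the opposite pattern, with 12.1 to 24.3 CPM in replicates 1 and 2 and 3.49 to 7.08 CPM in the other livers. The split was noticed after the values were seen and holds 2 WT and 2 LKO livers against 4 and 4. *Dbp* and *Arntl* were picked for it from a list of 14 clock genes. Of that list *Bhlhe41* was also lower in all livers of replicates 1 and 2, but *Cry1* and *Per1* overlapped across the split.

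*Cyp7a1* overlapped across that split, at 12.4 to 133 CPM in the 4 livers with low *Dbp* and at 46.5 to 366 CPM in the 8 others. With a term for the split, its log2 fold change between genotypes was -0.45 (adjusted p = 0.763 by edgeR), and none of the 9 genes was called, while the number of all genes called went from 75 to 170. Among 12766 other genes with a mean of at least 1 CPM, those most like *Cyp7a1* from liver to liver were *Sepsecs* (r = 0.93), *Kctd2* (0.92), *Zfp182* (0.91), *Il15ra* (0.91) and *Gm18101* (0.91), by Pearson's r of the deviations of log2 CPM from the genotype mean over 12 livers. By the same measure r was 0.61 with *Dbp* and -0.65 with *Arntl*, ranks 683 and 12289 of the 12766 genes from the highest r down. *Nr4a1*, an orphan nuclear receptor looked up outside this rule, had the lowest r of the 12766 genes (-0.91). None of the 5 most similar genes was called between genotypes, with log2 fold changes from -0.05 to 0.14.

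**Figure D2:**
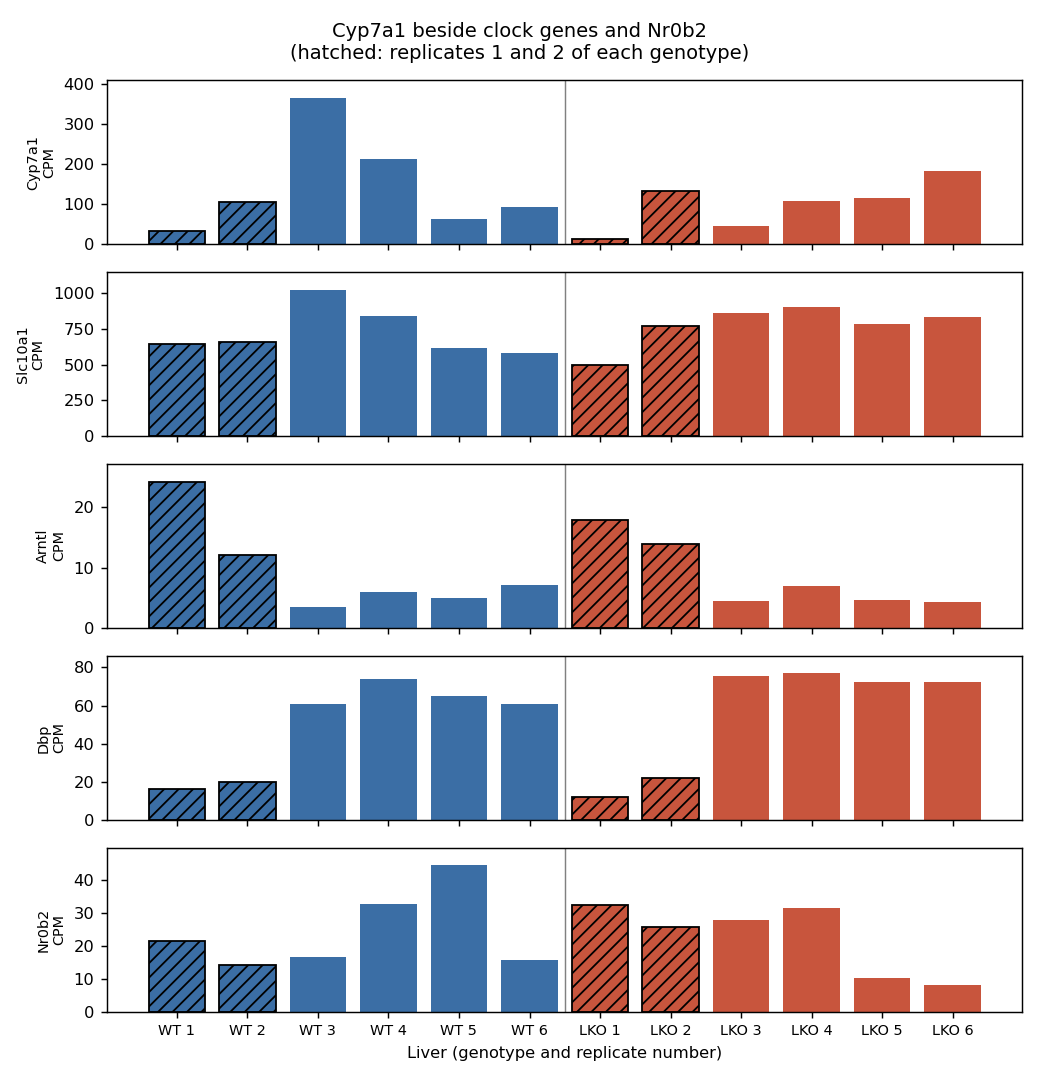
CPM (y axes, linear, from 0) of *Cyp7a1*, *Slc10a1*, the clock genes *Arntl* and *Dbp*, and *Nr0b2* in 6 WT (blue) and 6 LKO (red) livers; hatched bars are replicates 1 and 2. *Dbp* is at most 21.7 CPM in the hatched livers and at least 60.8 CPM in the others, in both genotypes.

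*Cyp8b1*, which steers the pathway to cholic acid (chr9:121914356-121916305, minus strand), was read at 337, 380.2 and 573 CPM in the lowest, median and highest WT liver and at 244, 338 and 389.6 CPM in LKO. In 3 of 6 LKO livers it lay below every WT liver, and in 2 of 6 WT livers above every LKO liver. The log2 fold change was -0.31 ± 0.15 (SE), with a 95% interval from -0.63 to 0.01 and an adjusted p of 0.436 by edgeR.

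*Akr1d1*, the reductase that sets the A ring (chr6:37530173-37568815, plus strand), was read at 107, 168 and 224 CPM in WT and at 81.2, 139.7 and 196 CPM in LKO. The groups overlapped over most of their range, with a log2 fold change of -0.26 ± 0.20 (SE) and an adjusted p of 0.669 by edgeR.

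*Hsd3b7*, whose enzyme oxidises the sterol ring after the first hydroxylation, had 0 reads in all 12 livers and was not tested. For 0 counts the upper limit of 3 reads corresponds to 0.136 to 0.202 CPM before scaling, for counting error only. In GENCODE M21 the gene lies at chr7:127800604-127803802 on the plus strand, and 2746 of its 2769 exon bases (99.2%) are also exon bases of other listed genes, 1717 of them on the same strand. These are *Gm49388*, a readthrough model on the same strand with 0 reads in all 12 livers as well, and *9430064I24Rik* on the opposite strand with 14 to 42 reads. Of the 1205 genes in the table with every exon base shared, 1194 (99.1%) had 0 reads in all livers, and so had 448 of the 453 (98.9%) that share them only with genes of the opposite strand. Of the protein-coding genes, 169 of 172 (98.3%) with every base shared and 4458 of 15566 (28.6%) with none shared were at 0. The overlap setting and the strand setting of the counting are not given in the sources used here, and the 0 of *Hsd3b7* is therefore not read as a missing mRNA.

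The other bile acid genes share no exon base with another gene, apart from *Abcb11* with 155 of 5146 bases (3.01%).

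*Cyp7b1*, the oxysterol hydroxylase of the alternative pathway (chr3:18071950-18243338, minus strand), had the lowest log2 fold change of the 9 genes, and it was called only with WT replicate 3 left out, alone or together with LKO replicate 5. Its level was 122, 446 and 591 CPM in the lowest, median and highest WT liver and 95.8, 204 and 282 CPM in LKO. In 5 of 6 WT livers, at 398 CPM or more, it lay above every LKO liver, and in WT replicate 3 it lay below 5 of the 6 LKO livers. The mean was 413 ± 157 CPM (SD, n = 6) in WT and 205 ± 64.03 CPM in LKO. The log2 fold change was -1.01 ± 0.30 (SE), with a 95% interval from -1.65 to -0.37, an unadjusted p of 0.00447 and an adjusted p of 0.182 by edgeR. Without WT replicate 3 it was -1.20 with an adjusted p of 0.0125, and with any other liver left out the adjusted p was 0.193 or higher.

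WT replicate 3 stood apart in other genes that differ between male and female mouse liver. *Selenbp2*, higher in males, was at 111 CPM in WT replicate 3 and at 579.8 to 730.4 CPM in the other WT livers, and *Mup20*, a male urinary protein, at 887 CPM against 1692 to 2420.4 CPM. LKO replicate 5, the lowest LKO liver for *Cyp7b1*, was also the lowest for *Selenbp2* (43.4 CPM against 150.2 to 247 CPM) and *Mup20* (623 CPM against 927 to 1450.2 CPM). Both genes were picked for these livers from a list of 9 male-biased genes: WT replicate 3 was the lowest WT liver for 6 of the 9, but LKO replicate 5 the lowest LKO liver for only 3, and it was the highest for *Cyp4a12a*. The same livers had the most reads of the female-biased *Cyp2b9*, at 2.79 and 0.69 CPM against at most 0.10 CPM in the other 10. *Cyp2b9* was picked from a list of 8 female-biased genes, of which only 3 had reads enough to be tested. Of these, *Cux2* (4 to 24 reads per liver) was also highest of its genotype in both livers. *A1bg* was highest in neither, but had only 0 to 4 reads per liver, too few to rank livers. The remaining tested gene of the list is not reported here. *Cyp7b1* is itself known as higher in male liver.

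Outside the naming rule, the genes most like *Cyp7b1* over the 12 livers were *Selenbp2* (r = 0.96), *Enho* (0.96), *C6* (0.95), *Mup20* (0.95) and *Mup7* (0.95). Of these *Enho* was called, with 10.3 ± 5.27 CPM (SD, n = 6) in WT and 1.78 ± 0.563 CPM in LKO and an adjusted p of 0.00583 by edgeR, and *Selenbp2* was not (log2 fold change -1.71 ± 0.41, SE, adjusted p = 0.0893), though it was called by DESeq2, without a filter and without WT replicate 3. WT replicate 3 and LKO replicate 5 were the lowest of their genotype for *Cyp7b1*, *Selenbp2* and *Mup20*. They weigh on the r values above, which were not computed without them. With WT replicate 3 and LKO replicate 5 both left out, the log2 fold change of *Cyp7b1* was -1.05 with an adjusted p of 0.00171 by edgeR. Both livers were picked after their low *Cyp7b1* was seen, which narrows its spread, so that value is no independent evidence of a difference. Of the 9 genes on the list of male-biased liver genes, 2 were called higher (*Cyp4a12a* and *Cyp4a12b*) and 1 lower (*Susd4*). Of all genes tested, edgeR called 0.274% higher and 0.154% lower. The adjusted p of *Susd4* was 0.0270 by edgeR, and 0.0504 to 0.0758 in 7 of the 12 fits that leave out a liver. The list's median log2 fold change was -0.30.

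**Figure D3:**
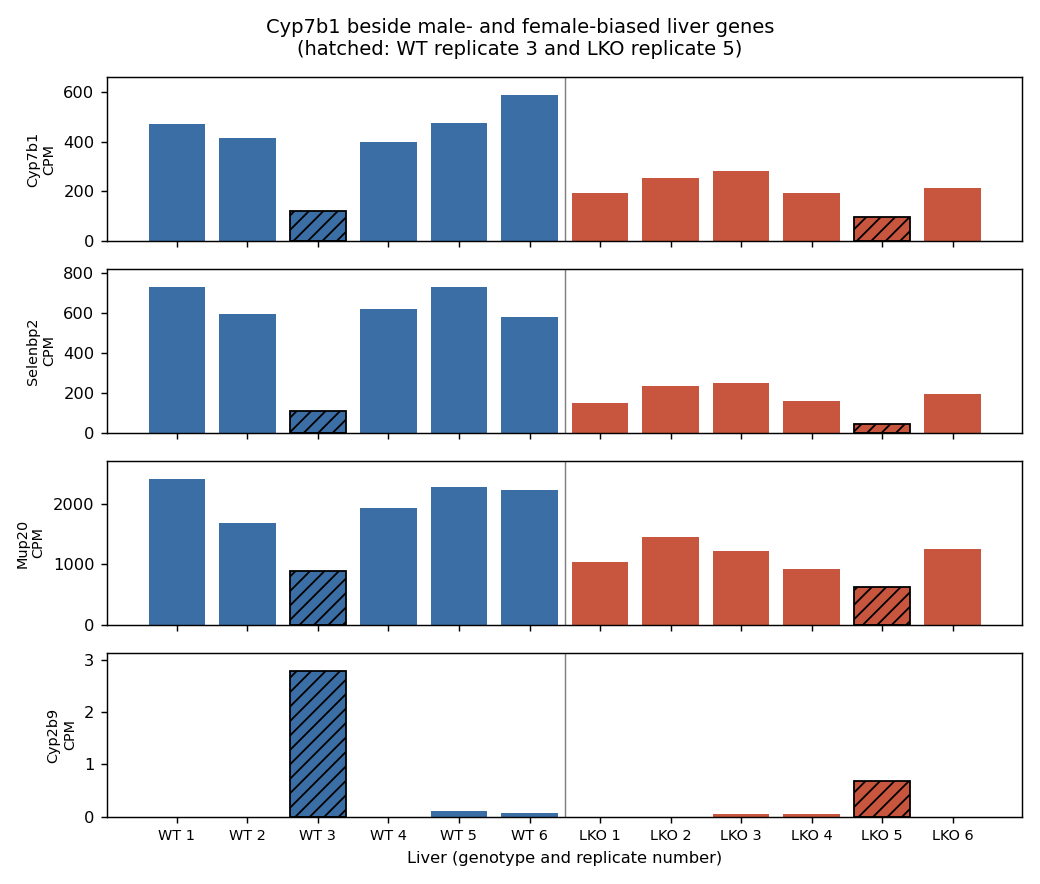
CPM (y axes, linear, from 0) of *Cyp7b1*, the male-biased *Selenbp2* and *Mup20* and the female-biased *Cyp2b9* in 6 WT (blue) and 6 LKO (red) livers. The hatched livers, WT replicate 3 and LKO replicate 5, have the lowest *Cyp7b1* of their genotype (122 and 95.8 CPM) and the highest *Cyp2b9* (2.79 and 0.69 CPM).

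*Cyp27a1*, the mitochondrial side-chain hydroxylase (chr1:74713574-74737892, plus strand), had the smallest difference between genotypes. It was read at 546, 570.5 and 663 CPM in the lowest, median and highest WT liver and at 550.2, 573 and 649 CPM in LKO. The log2 fold change was 0.01 ± 0.07 (SE), with a 95% interval from -0.14 to 0.16 (adjusted p = 0.9754 by edgeR). The difference from *Cyp7b1*, the other enzyme of this pathway, was not tested.

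The conjugating enzymes had small differences. Their SD within genotypes on the log2 scale was 0.10 for *Slc27a5* and 0.15 for *Baat*. These were above the SD of 22.8% and 55.0% of the genes with a mean of at least 10 CPM. *Slc27a5*, the bile acid CoA ligase (chr7:12988346-12998192, minus strand), was read at 899, 914 and 989 CPM in WT and at 693, 815 and 926 CPM in LKO. In 5 of 6 LKO livers it lay below every WT liver, the exception being replicate 4. Its log2 fold change was -0.20 ± 0.07 (SE), with a 95% interval from -0.34 to -0.05, an unadjusted p of 0.0127 and an adjusted p of 0.268 by edgeR.

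*Baat*, which joins the activated bile acid to taurine or glycine (chr4:49489422-49506557, minus strand), was read at 256, 289 and 353 CPM in WT and at 214, 248.8 and 276 CPM in LKO. In 4 of 6 LKO livers it lay below every WT liver and in 4 of 6 WT livers above every LKO liver. Its log2 fold change was -0.23 ± 0.09 (SE), with an unadjusted p of 0.0198 and an adjusted p of 0.314 by edgeR.

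Neither carrier passed the test. *Abcb11*, the canalicular pump (chr2:69238282-69342616, minus strand), was read at 731, 891 and 941 CPM in WT and at 649.5, 726 and 889.97 CPM in LKO. In 4 of 6 LKO livers it lay below every WT liver. Its log2 fold change was -0.21 ± 0.09 (SE), with an unadjusted p of 0.0362 and an adjusted p of 0.380 by edgeR.

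*Slc10a1*, the uptake carrier (chr12:80953183-80968705, minus strand), was read at 586, 654 and 1027 CPM in WT and at 497, 812 and 904 CPM in LKO. Its LKO median lay above the WT median, with replicate 1 far below the other LKO livers, and WT replicate 3 above all livers. The log2 fold change was 0.09 ± 0.15 (SE), with an adjusted p of 0.879 by edgeR.

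Per kilobase of exon, the order of levels in WT was led by *Slc27a5* with 382 ± 15.6 RPKM (SD, n = 6). It was followed by *Slc10a1* (332 ± 77.3 RPKM), *Cyp27a1* (270.3 ± 20.8 RPKM), *Cyp8b1* (206 ± 45.2 RPKM), *Cyp7b1* (191 ± 72.7 RPKM), *Abcb11* (169.8 ± 14.8 RPKM), *Baat* (151 ± 18.2 RPKM), *Akr1d1* (57.5 ± 15.7 RPKM) and *Cyp7a1* (34.8 ± 29.7 RPKM). The rate-limiting enzyme thus had the lowest mean level per length. Neighbours were ordered the same way in all 6 WT livers for *Slc10a1* over *Cyp27a1* and for *Baat* over *Akr1d1*. The other neighbours changed places in at least 1 liver, and *Cyp8b1* was above *Cyp7b1* in 2 of 6. In LKO *Cyp7b1* was at 94.8 ± 29.6 RPKM, below the mean of *Baat* (129 ± 12.2 RPKM).

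**Figure D4:**
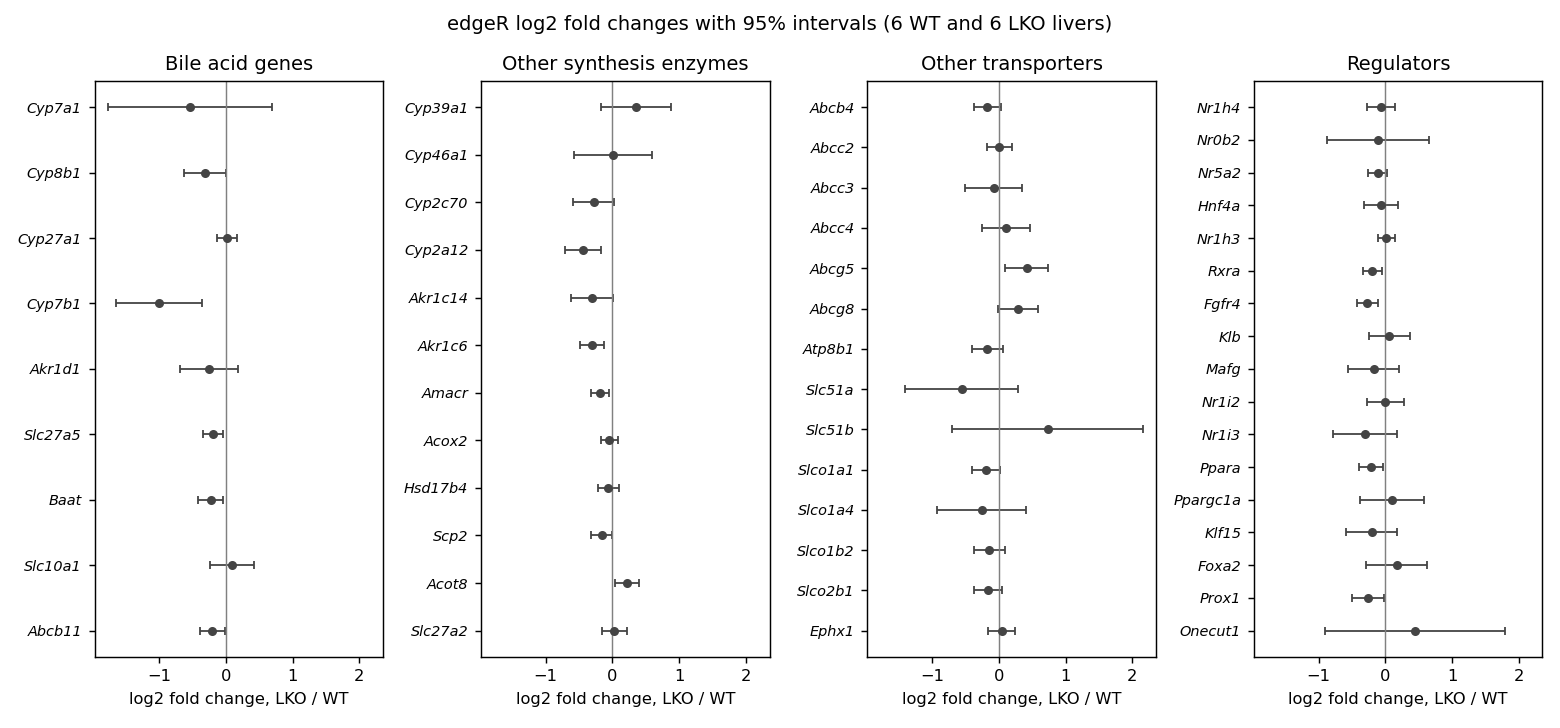
Log2 fold change of LKO over WT (x axis) with 95% intervals from edgeR for the tested bile acid genes, other synthesis enzymes, other transporters and 17 of the 18 regulators tested (rows; 6 WT and 6 LKO livers). Intervals that miss 0 include *Cyp7b1* (-1.65 to -0.37) and *Fgfr4* (-0.42 to -0.12), but none of the genes shown had an adjusted p under 0.05.

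Ratios within a liver do not depend on the library total and are given without a test. The log2 ratio of *Cyp7a1* to *Cyp7b1*, classic to alternative hydroxylase, was -3.85, -2.33 and 1.58 in the lowest, median and highest WT liver and -3.98, -0.89 and 0.27 in LKO. Of the 12 livers, only WT replicate 3 and LKO replicate 5 had more CPM of *Cyp7a1* than of *Cyp7b1*. The log2 ratio of *Cyp8b1* to *Cyp7a1* was 0.15, 1.84 and 3.35 in WT and 0.43, 1.73 and 4.30 in LKO. The log2 ratio of the carriers, *Slc10a1* to *Abcb11*, was -0.54, -0.41 and 0.26 in WT and -0.54, 0.10 and 0.37 in LKO. The groups overlapped in all of these ratios, and the differences of their means (0.41, 0.21 and 0.30) were smaller than their SD within groups (1.77, 1.25 and 0.32). With a liver left out, the difference of the *Cyp7a1* to *Cyp7b1* ratio ranged from -0.0021 (without WT replicate 1) to 1.08 (without WT replicate 3), and that of *Cyp8b1* to *Cyp7a1* from -0.23 (without LKO replicate 1) to 0.54 (without LKO replicate 6).

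Several of the genes varied together among livers of 1 genotype. Over 36 pairs of the 9 genes, 4 pairs passed a Benjamini-Hochberg adjusted permutation p under 0.05 for Pearson's r of the deviations of log2 CPM from the genotype mean (12 livers, 100000 permutations within genotype). *Akr1d1* and *Slc27a5* had r = 0.86 and rho = 0.90 (permutation p = 0.00037 and 0.00044, adjusted 0.00666 and 0.00792). *Cyp8b1* and *Slc27a5* had r = 0.75 and rho = 0.85 (permutation p = 0.00037 and 0.00036, adjusted 0.00666 and 0.00792). *Akr1d1* and *Slc10a1* had r = 0.84 and rho = 0.83 (permutation p = 0.00066 and 0.00201, adjusted 0.00792 and 0.0181). *Slc27a5* and *Slc10a1* had r = 0.83 and rho = 0.90 (permutation p = 0.00142 and 0.00187, adjusted 0.0128 and 0.0181).

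These genes thus hold an enzyme of the ring, a hydroxylase, a conjugating enzyme and the uptake carrier. Within genotypes the 4 pairs had r from 0.78 to 0.87 in WT and from 0.78 to 0.98 in LKO, and without the 2 livers farthest from the median of the first gene r was 0.81, 0.70, 0.67 and 0.81. LKO replicate 1, low in all of these genes, was among the livers left out each time. The values of a liver share its library and scaling, so part of such a correlation can come from the library, which was not tested.

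*Cyp7a1* and *Slc10a1* had r = 0.82 and rho = 0.74 but missed the threshold (adjusted permutation p = 0.0513 and 0.0703). *Baat* and *Abcb11* had r = 0.67 and rho = 0.66 (adjusted permutation p = 0.0892 and 0.0860). *Cyp7b1* had r below 0 with 7 of the 8 other genes, from -0.50 with *Slc10a1* to -0.01 with *Baat*, and none of these passed. The r with *Slc10a1* was -0.91 in WT and 0.08 in LKO, and -0.09 over both without WT replicate 3 and LKO replicate 5. That with *Cyp27a1* went from -0.44 to 0.05 without WT replicate 3 and LKO replicate 4.

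**Figure D5:**
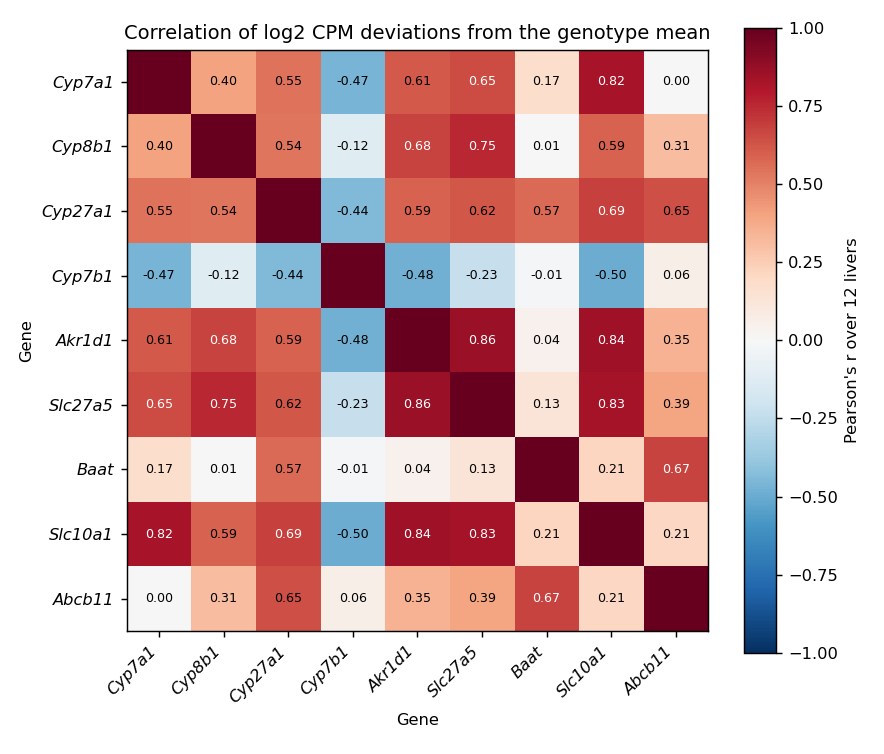
Pearson's r (colour and number) between the bile acid genes (both axes) over 12 livers, from deviations of log2 CPM from the genotype mean. *Akr1d1*, *Slc27a5*, *Slc10a1* and *Cyp8b1* have r of 0.59 to 0.86 with each other, and *Cyp7b1* has r of -0.50 to 0.06 with the other genes.

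Around these genes, the rest of the synthesis pathway gave no call either. Of 13 other synthesis enzymes 12 were tested and 0 were called, with a median log2 fold change of -0.11. At an unadjusted p under 0.05, 4 were lower and 1 was higher, against 5.36% of all genes lower and 6.33% higher. *Cyp2a12*, a bile acid hydroxylase of mouse liver, was read at 398, 484 and 582 CPM in WT and at 295, 333 and 469 CPM in LKO, with a log2 fold change of -0.44 ± 0.13 (SE) and an adjusted p of 0.164 by edgeR. *Akr1c6* had a log2 fold change of -0.30 ± 0.08 (adjusted p = 0.145), and *Amacr*, the racemase of the side chain, one of -0.19 ± 0.07 (adjusted p = 0.270). DESeq2 called *Akr1c6* and *Cyp2a12* (adjusted p = 0.0260 and 0.0450), in a test that called 2.0% of all genes. *Cyp2c70*, the enzyme that makes muricholic acids, had 813 ± 158 CPM (SD, n = 6) in WT and 669.8 ± 112 CPM in LKO (adjusted p = 0.477 by edgeR).

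None of 14 other transporters was called, and their median log2 fold change was -0.11. Against the same shares of all genes (5.36% lower, 6.33% higher), 0 were lower and 1 was higher at an unadjusted p under 0.05. The cholesterol exporters of the canaliculus had the lowest unadjusted p among them, with log2 fold changes of 0.42 ± 0.15 (SE) for *Abcg5* and 0.29 ± 0.14 for *Abcg8* (adjusted p = 0.273 and 0.459 by edgeR). *Slco1a1*, an organic anion carrier, had a log2 fold change of -0.19 ± 0.10 (adjusted p = 0.463). The phospholipid flippase *Abcb4* (-0.17 ± 0.09, adjusted p = 0.511) and the basolateral exporter *Abcc3* (-0.08 ± 0.20, adjusted p = 0.926) did not pass. *Slc51b*, a subunit of the exporter that rises in cholestasis, had 0 to 11 reads per liver, too few to give a direction.

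Among 20 regulators 18 were tested and 0 were called, with a median log2 fold change of -0.11. At an unadjusted p under 0.05, 5 were lower and 0 higher, against 5.36% of all genes lower and 6.33% higher. *Fgfr4*, the receptor for FGF15, was read at 43.4, 50.2 and 52.3 CPM in WT and at 35.7, 40.7 and 46.5 CPM in LKO. Its groups overlapped through WT replicate 3 and LKO replicates 4 and 6, and its log2 fold change was -0.27 ± 0.07 (SE) with an adjusted p of 0.132 by edgeR and 0.0304 by DESeq2. Its co-receptor *Klb* had a log2 fold change of 0.06 ± 0.15 (adjusted p = 0.918 by edgeR).

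The FXR gene *Nr1h4* had a log2 fold change of -0.06 ± 0.10 (SE) and its target *Nr0b2* one of -0.10 ± 0.36, with *Nr0b2* spread from 8.11 to 44.3 CPM over the 12 livers (adjusted p = 0.858 and 0.948 by edgeR). The LRH-1 gene *Nr5a2* had a log2 fold change of -0.12 ± 0.07, *Hnf4a* -0.06 ± 0.12 and *Rxra* -0.20 ± 0.07, with adjusted p from 0.247 to 0.892 by edgeR. *Vdr* and *Gpbar1*, bile acid receptors known mainly from intestine and non-parenchymal cells, had at most 3 reads in any liver and were not tested.

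The supply of cholesterol, the substrate, gave 0 calls among 14 genes, with a median log2 fold change of -0.18. At an unadjusted p under 0.05, 2 were lower and 0 higher, against 5.36% of all genes lower and 6.33% higher. *Srebf2*, the regulator of cholesterol synthesis, had a log2 fold change of -0.43 ± 0.12 (SE, adjusted p = 0.165 by edgeR) and *Fdft1* one of -0.30 ± 0.17 (0.530). *Sqle*, a rate-limiting enzyme of the pathway, had a log2 fold change of -0.22 ± 0.26 (adjusted p = 0.796).

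Other cell types were read by their markers, since in bulk liver fewer hepatocytes and less RNA per hepatocyte cannot be told apart. Against 6.33% of all genes higher at an unadjusted p under 0.05, 5 of the 6 Kupffer cell markers were, and all 6 had log2 fold changes above 0. None was called by edgeR, while DESeq2 called 3 higher, *Clec4f*, *Vsig4* and *Cd5l* (log2 fold changes 0.39, 0.43 and 0.49, adjusted p = 0.0245, 0.0277 and 0.0394). The summed level of all 6 Kupffer cell markers was 81.7 to 109 CPM in WT and 105 to 178 CPM in LKO. The 5 hepatocyte markers found summed to 91338 to 109071 CPM in WT and 83109 to 91481 CPM in LKO, with 0 called by edgeR or DESeq2. Of these 5, 2 were lower and 0 higher at an unadjusted p under 0.05, where 5.36% of all genes were lower. The 7 cholangiocyte markers summed to 84.9 to 195 CPM in WT and 66.2 to 258 CPM in LKO. These sums rest mainly on the most abundant of the 7, since *Epcam* had 0.77 to 3.12 CPM per liver and *Krt7* 0.23 to 1.24 CPM. The 6 stellate cell and 6 endothelial markers overlapped between genotypes as well, with 0 called by edgeR on any of these lists. The endothelial *Lyve1* was called higher by DESeq2 (log2 fold change 0.76, adjusted p = 0.0127) and by edgeR without LKO replicate 4 (0.89, adjusted p = 0.0264). The 5 B cell markers summed to 14.9 to 23.5 CPM in WT and 5.89 to 7.86 CPM in LKO, through *Ighm*, which was called lower, while the other 4 had log2 fold changes above 0. The part of these shifts in the differences of *Slc27a5*, *Baat*, *Abcb11* and *Cyp7b1* was not tested. Of the zone markers, 0 of 7 pericentral and 0 of 6 periportal genes were called by edgeR, with median log2 fold changes of 0.01 and -0.12, and DESeq2 called the periportal *Cyp2f2* lower (log2 fold change -0.41, adjusted p = 0.0201).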

How the data were processed

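Livers of 6 WT and 6 LKO mice were grouped by the genotype in the labels, 1 library per mouse. For mRNA libraries (KAPA HyperPrep, HiSeq4000), the authors used Trimmomatic 0.36 for trimming, HISAT2 2.1.0 for alignment to GRCm38.p6 and HTSeq 0.6.1 for counting. What they deposited is a table of unnormalized counts for each Ensembl gene. GENCODE M21, which holds 54165 of the 54232 identifiers, gave symbols, positions and exon lengths.

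A gene entered the test when 6 or more livers had over 2 reads of it (17509 genes). After TMM scaling, genotype was tested by the two-sided quasi-likelihood test of edgeR 4.0.16 (R 4.3.3), and p-values were adjusted by Benjamini-Hochberg over the 17509 genes. Log2 CPM used a prior count of 0.5. Total counts were 14860414 to 22111926. Intervals are those of the difference between genotypes, with an error taken from the spread between livers. On simulated counts with known changes of 1 and 2 (log2) in genes with a mean over 50 reads, edgeR recovered 90 of 90 and 110 of 110, with 8 false calls among 17176 genes. The changed genes were drawn at random and simulated without outlying livers or the split of replicates 1 and 2. This recovery therefore does not tell how well a change would be found in genes as variable as *Cyp7a1* or *Cyp7b1*.

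The bile acid genes and the other lists were chosen with earlier results of these data known. Named genes were the 10 bile acid genes, a set of regulators, transporters and cholesterol genes, the called genes of each list or its 3 of lowest p, and the 5 genes most like *Cyp7a1*; some of these are not reported here. *Nr4a1* and the neighbours of *Hsd3b7* fall outside this rule. *Enho*, *C6*, *Mup7*, *Mup20*, *Selenbp2*, *Dbp*, *Arntl*, *Cyp2b9*, *Cyp39a1*, *Cyp46a1*, *Ch25h*, *Acot8*, *Vdr* and *Gpbar1* fall outside it too, and their values were known when they were chosen. Alternatives were RLE scaling, no filter, at least 10 reads in every liver, limma voom 3.58.1 (the study's method), DESeq2 1.42.0, a replicate block, scaling without the 20 most abundant genes, and each liver left out. After seeing the data, 2 were added: leaving out WT replicate 3 and LKO replicate 5 together, and a term for replicates 1 and 2.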

Additional observations from a re-analysis of the deposited data

Results flagged for a closer look

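In groups of 6 livers, a liver was picked out where its gap to the nearest liver, divided by the range of the group in log2 CPM, passed Dixon's 95% critical value for that group size. Of 139 groups examined 12 were picked out (8.63%). Some of the genes were chosen for varying together, so this share cannot be set against a rate given by chance. Among the bile acid genes these were *Cyp7b1* in WT (0.750, replicate 3, 122 CPM, lowest) and in LKO (0.651, replicate 5, 95.8 CPM, lowest), *Slc10a1* in LKO (0.729, replicate 1, 497 CPM, lowest), *Cyp8b1* in WT (0.643, replicate 4, 573 CPM, highest) and *Abcb11* in WT (0.641, replicate 6, 731 CPM, lowest). LKO replicate 5 was also the lowest LKO liver for *Cyp2c70* (0.737).

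LKO replicate 1 was the lowest LKO liver for *Hal*, a periportal gene (0.670), and for 3 of the genes most like *Cyp7a1*: *Sepsecs* (0.719), *Zfp182* (0.812) and *Il15ra* (0.663). The remaining values were *Clec4f* in WT (0.777, replicate 1, lowest) and *A1bg* in LKO (0.808, replicate 3, at 0 CPM).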

How the results depend on the processing

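No bile acid gene was called under RLE, no filter, the 10-read filter, limma voom, DESeq2, scaling without the 20 most abundant genes, the replicate block or the term for replicates 1 and 2. Without WT replicate 3 and LKO replicate 5 together 1 was called, *Cyp7b1* (log2 fold change -1.05, adjusted p = 0.00171 by edgeR). With single livers left out, 0 to 1 were called, the log2 fold change of *Cyp7b1* ranged from -1.20 to -0.86, that of *Cyp7a1* from -0.80 to -0.02 and that of *Cyp27a1* from -0.018 to 0.047. All genes called were 75, and 114 without a filter, 350 by DESeq2, 170 with the term for replicates 1 and 2, and 38 (without WT replicate 5) to 132 (without WT replicate 3) with a liver left out. DESeq2 called 2 other synthesis enzymes, 1 regulator, 3 Kupffer cell markers, 1 endothelial and 1 periportal marker, none of which edgeR called; of these *Lyve1* was also called without LKO replicate 4. Of the 9 male-biased genes, DESeq2 called 5, where it called 2.0% of all genes tested. The term for replicates 1 and 2 called 1 gene of cholesterol supply, *Srebf2*, and so did 0 to 1 with a liver left out (1 without LKO replicate 1). Of the 4 correlated pairs, 2 kept r at or above the lowest r that passed (0.75) without the 2 farthest livers. The cause of these shifts was not tested.

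Signs changed in genes with no call. Without both livers the log2 fold change was 0.053 for *Per1* and 0.038 for *Il15ra*, which was at 0.0045 with no filter. With a liver left out the ranges were -0.24 to 0.17 for *Nr0b2*, -0.14 to 0.020 for *Hnf4a*, -0.030 to 0.14 for *Klb*, -0.21 to 0.022 for *Abcc3*, -0.045 to 0.092 for *Zfp182*, -0.056 to 0.094 for *Il15ra* and -0.023 to 0.10 for *Gm18101*.

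The livers were not treated as paired by replicate number: same-numbered deviations correlated from -0.06 to 0.14, at 0.10 to 0.14 for 4 of the 6 numbers, and 2 of 6 livers were closest to their own number. Replicates 1 and 2 of both genotypes do share their *Dbp* and *Arntl* levels. With the replicate block 97 genes and 0 bile acid genes were called, the log2 fold change of *Cyp7b1* was -0.98 (adjusted p = 0.270 by edgeR), and the call of *Susd4* was lost (adjusted p = 0.0669).

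With 6 livers per group, the spread of *Cyp7a1* and *Cyp7b1* and not the read depth limits their intervals. Nothing states that the mice of a group came from separate litters, so p-values set the genotype difference against the spread between these mice only. Protein, bile acids and enzyme activity were not analysed here.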

Other observations

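Enzymes that feed the alternative pathway from other oxysterols were also read. *Cyp39a1*, which hydroxylates 24-hydroxycholesterol, was at 16.4, 25.0 and 45.9 CPM in the lowest, median and highest WT liver and at 20.05, 35.1 and 49.2 CPM in LKO, with a log2 fold change of 0.35 ± 0.25 (SE, adjusted p = 0.621 by edgeR). *Cyp46a1*, the 24-hydroxylase known from brain, was at 1.00 to 3.31 CPM over the 12 livers. *Ch25h*, the 25-hydroxylase, had at most 10 reads in any liver and was not tested. *Acot8*, a peroxisomal thioesterase that can act on bile acid CoA esters, was at 9.59, 10.4 and 10.8 CPM in WT and at 10.4, 11.9 and 14.5 CPM in LKO (log2 fold change 0.22 ± 0.09, SE, adjusted p = 0.319 by edgeR).

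The bile acid genes together held 0.338% to 0.504% of all reads counted in a liver. Their summed level was 4182 to 5037 CPM in WT and 3260 to 4529 CPM in LKO, lowest in LKO replicate 1.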
